A study of Homo sapiens with 6 samples.

Results

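The SOX genes of the neural crest lineage comprised SOX2, SOX4, SOX5, SOX6, SOX8, SOX9, SOX10 and SOX11, and their chromatin accessibility was read from the ATAC-seq peaks assigned to them. A peak was assigned to one of these genes when its centre lay inside the GENCODE v44 gene body, or when it was intergenic and that gene had the nearest protein-coding transcription start site. The rule gave 403 peaks for the 8 genes, out of 152800 peaks in the atlas, and all 403 passed the filter on low counts. The cells were A375, an established human melanoma line, carrying either an empty vector or a vector for stable overexpression of HMGB2 (HMGB2OE), with 3 libraries of each. The study asked whether a raised level of HMGB2, a chromatin protein that bends DNA through its high mobility group boxes, changed which regions of the melanoma genome were open. The lines were made with lentivirus and drug selection, and the study described its libraries as technical replicates of an experiment that was not repeated, so every p-value below measures the spread between these libraries only.

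SOX proteins are transcription factors that bind DNA through a high mobility group box, a fold that HMGB2 also carries. The SOXE genes SOX8, SOX9 and SOX10 act in neural crest cells, with SOX10 needed to make and keep melanocytes and SOX9 needed for cartilage. The SOXD proteins SOX5 and SOX6 have no activation domain of their own and modify the action of SOXE proteins, SOX2 keeps neural and embryonic stem cells undifferentiated, and the SOXC proteins SOX4 and SOX11 act in immature neurons and crest derivatives.

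The libraries held 26910189 to 45645294 reads in peaks. Because every SOX peak spanned 502 bp, levels could be compared between them as normalized counts, which are counts scaled to a common library size. A count of 3 in a single library corresponded to 2.5 to 4.17 normalized counts, and no SOX peak had a mean under 11. At HMGB2 itself, the peak over coding sequence at chr4:173332680-173333181 went from 32.0 ± 15.7 to 98.4 ± 5.31 normalized counts (SD, n = 3; log2 fold change 1.67, adjusted p = 0.000113), whereas the HMGB2 promoter peak was level at 1986 ± 223 and 1973.1 ± 59.0. DNA of the vector and of the native gene cannot be told apart in these counts. The label of a melanoma line was checked against melanocytic markers. A promoter peak was present at 5 of 7 of them (MITF, SOX10, PMEL, MLANA and TYRP1), with strongest peaks of 158 to 1325 normalized counts in empty vector cells, and TYR and DCT had none. Markers of blood, epithelium, endothelium and fibroblasts also had promoter peaks, at 92 to 751 normalized counts, except SPI1 and CDH5, which had none, so an open promoter did not single out the lineage.

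The SOX loci as a whole changed about as often as the rest of the genome. None of the changes lay at a SOX promoter, but only 34 of the peaks did, and 1.9% of promoter peaks genome-wide changed. A peak was called when edgeR's quasi-likelihood test gave an adjusted p under 0.05, corrected over all 150117 tested peaks, together with a fold of at least 1.5. Of the 403 SOX peaks, 8 were called higher and 5 lower in HMGB2OE cells, which is 3.23%, against 3.31% of all tested peaks (1.87% higher and 1.44% lower). An unadjusted p under 0.05 was found at 100 SOX peaks, or 24.8%, beside 20.9% of all tested peaks. The libraries of both groups did not overlap at 100 SOX peaks too, or 24.8%, near the 25.1% of all tested peaks. Without the fold limit 15 SOX peaks were higher and 13 lower, beside 6.47% of all peaks. DESeq2, the other tool used, called 6 of the 8 and 4 of the 5, where it called 2.59% of all peaks. The median log2 fold change of the SOX peaks was 0.03. Leaving out HMGB2OE replicate 2 lowered the 8 higher calls to 5, and the 5 lower calls became 2 when empty vector replicate 1 was left out and 3 when empty vector replicate 2 was.

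Peaks were then split by distance to the transcript starts of their own gene. Genome-wide, promoter peaks were a wider class, within 3 kb of any coding or lncRNA start. None of the 34 SOX promoter peaks, within 3 kb of an own start, was called, beside 1.9% of those 46300. DESeq2 also called none, and 6 of the 34, or 17.6%, had an unadjusted p under 0.05 in edgeR, beside 18.2% of all promoter peaks. Without the fold limit 1 of the 34 passed, beside 4.55% of all promoter peaks. The median log2 fold change was −0.12 over the SOX promoter peaks and −0.04 over all promoter peaks. The SOX promoter median was −0.05 when empty vector replicate 1 was left out, and leaving out HMGB2OE replicate 1 or empty vector replicate 2 gave −0.06. None of the 46 peaks at the promoter of another coding or lncRNA gene was called by either tool, and 14, or 30.4%, had an unadjusted p under 0.05, beside 18.2% of all promoter peaks. These 46 would also count in the genome-wide promoter class, and their median log2 fold change was 0.07. Of the 86 near distal peaks, 3 to 50 kb away, 1 was called higher and 1 lower, or 2.33% beside 3.93% of all peaks away from promoters. That genome-wide class includes the far peaks, of which 4.56% were called, so the classes are unlike. The 237 far peaks, over 50 kb from every own start, held 7 higher and 4 lower calls, which is 4.64% beside 4.56% of all far peaks in the genome (2.67% higher and 1.89% lower). Genome-wide, far meant over 50 kb from a coding gene start and away from promoters. Without the fold limit 19 of the 237 passed, beside 7.99% of all far peaks. The groups did not overlap at 11 promoter peaks, or 32.4% beside 23.9% of all promoter peaks, and at 56 far peaks, or 23.6% beside 26.6%. Their median log2 fold change was 0.05, beside 0.02 for all far peaks. The plot of peaks by distance class shows that the calls sat among the far and near distal peaks. Without empty vector replicate 2 the far calls numbered 7, and without HMGB2OE replicate 1 a SOX6 promoter peak described below was called.

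**Figure D1:**
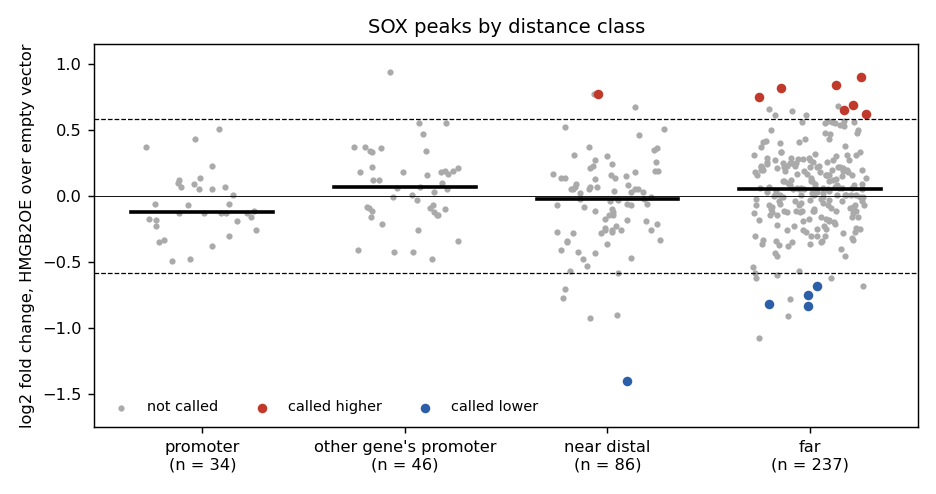
Log2 fold change of HMGB2OE over empty vector (y axis) of each of the 403 SOX peaks, grouped by distance class (x axis); bars are medians, dashed lines the 1.5-fold limit, and coloured points the called peaks. All 8 peaks called higher and all 5 called lower are near distal or far, and the promoter class has the lowest median, −0.12.

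At their promoters, 7 of the 8 genes had at least 1 peak, and SOX8 had none. The plot of strongest promoter peaks gives every library. Each value is the strongest of unequal numbers of promoter peaks, from 2 at SOX4 and SOX11 to 12 at SOX5. SOX5, SOX6 and SOX10 had 23, 19 and 9 annotated transcripts, and SOX2, SOX4, SOX9 and SOX11 had 1 each. The order below is thus one of single peaks. In empty vector cells the SOX6 peak was the strongest (1085 ± 27.2 normalized counts, SD, n = 3), followed by SOX5 (868 ± 10.8) and SOX10 (859 ± 23.5), whose library ranges overlapped. SOX11 (713 ± 19.1), SOX4 (604 ± 57.5), SOX2 (479 ± 53.7) and SOX9 (253 ± 40.0) came next, each apart from its neighbour. In HMGB2OE cells the SOX6 promoter was again the highest (955 ± 55.7). SOX10 (865 ± 31.0) then overlapped with SOX5 (792 ± 46.5), and SOX11 (594 ± 82.0) with SOX4 (552 ± 44.3). SOX2 (457 ± 10.3) and SOX9 (266 ± 25.0) closed the order in these cells too. None of these 7 peaks was called, and their log2 fold changes ran from −0.26 at SOX11 to 0.07 at SOX9.

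**Figure D2:**
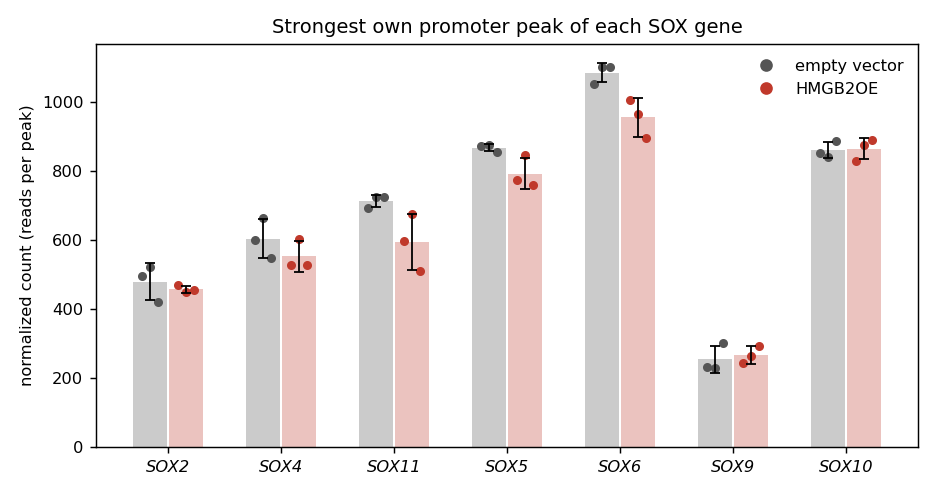
Normalized count (y axis) of the strongest promoter peak of each SOX gene (x axis) in the 3 empty vector and 3 HMGB2OE libraries, with points for libraries, bars for means and error bars for the SD. SOX6 is the highest in both groups and SOX9 the lowest, at 253 and 266.

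SOX10 (chromosome 22, 37970686 to 37987422, minus strand, hg38), the lineage factor of melanocytes, had no peak called by edgeR or DESeq2 and none at which the groups separated. Its 9 peaks all lay in the gene body, which overlaps POLR2F, and 1 of them had an unadjusted p under 0.05. Of all tested peaks 3.31% were called, 20.9% had such a p, and the groups were apart at 25.1%. With only 9 peaks, the lack of a call does not show that SOX10 was unaffected. At the strongest promoter peak, chr22:37984418-37984919, empty vector cells gave 852, 841 and 886 normalized counts and HMGB2OE cells 830, 874 and 890. The groups overlapped, and the log2 fold change was 0.01 ± 0.0824 (SE; adjusted p = 0.967). This peak lay at an internal start 2.8 kb into the gene and covered 24 bp of coding sequence. The 3 peaks near the gene's end, 15.0 to 16.2 kb from its start, had log2 fold changes of −0.34 to −0.26, with adjusted p of 0.164 to 0.437. Summed, they held 500, 390 and 456 normalized counts in empty vector cells and 396, 349 and 342 in HMGB2OE cells, with HMGB2OE replicate 1 above empty vector replicate 2.

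SOX8 (chromosome 16, 981770 to 986979, plus strand), a close relative of SOX10, had 5 peaks, all intergenic and downstream. Of these, 2 passed the adjusted p but not the fold limit, and both were lower in HMGB2OE cells. Without the fold limit 6.47% of all tested peaks passed. At chr16:997383-997884, within a lncRNA promoter 15.9 kb downstream, the counts were 247, 282 and 279 against 196, 182 and 205 (log2 fold change −0.48 ± 0.12, adjusted p = 0.014). At chr16:1003946-1004447, 22.4 kb downstream, they were 158, 151 and 169 against 112, 108 and 123 (−0.48 ± 0.145, adjusted p = 0.043). Every HMGB2OE library lay below every empty vector library at both, and the groups did not overlap at 25.1% of all tested peaks. The other 3 had log2 fold changes of −0.09 to 0.09.

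SOX9 (chromosome 17, 72121020 to 72126416, plus strand), the SOXE gene of cartilage, stands in a large gene-poor region, and its 106 peaks reached from 939.8 kb upstream to 482.1 kb downstream. It had the most calls of the 8 genes, 4 higher and 3 lower, which is 6.6% of its peaks beside 3.31% of all. Most of its peaks, 75, were far, and 6 of those were called, or 8.0% beside 4.56% of all far peaks. Of the 106 peaks, 51 lay inside LINC00511 and 10 inside SOX9-AS1, both lncRNAs. Among 149 other tested peaks within 2 Mb of SOX9, 1 was called, lower.

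Around the SOX9 start the peaks leaned to higher accessibility. All 10 peaks within 50 kb of it had a log2 fold change above 0, from 0.07 to 0.77 with a median of 0.37, although only 1 was called. Over all 8 genes, 58 of the 134 peaks within 50 kb of an own start, or 43.3%, were above 0. The window of SOX9 was singled out after its values were seen. At the other genes 16.7% (SOX4) to 48.3% (SOX5) of such peaks were above 0. The 4 near distal peaks summed to 510, 545 and 553 normalized counts in empty vector cells and to 819, 686 and 665 in HMGB2OE cells, so the groups did not overlap. The 4 promoter peaks summed to 580, 590 and 631 against 651, 671 and 727, which did not overlap either. Promoter sums of a gene failed to overlap between groups at 28.8% of genes with at least 2 such peaks, and sums over peaks away from promoters at 30.1%. The promoter peak over the SOX9 start was level, at 231, 230 and 300 against 243, 263 and 293 (log2 fold change 0.07 ± 0.125, adjusted p = 0.808). The upstream promoter peak at chr17:72118470-72118971 had 44.5, 61.9 and 57.3 against 76.5, 75.9 and 84.4, with no overlap and an adjusted p of 0.145. Of the 10 peaks, 9 remained above 0 without HMGB2OE replicate 1 and 9 without empty vector replicate 2.

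The called peak of that neighbourhood lay 30.7 kb downstream of the SOX9 start, at chr17:72151473-72151974, inside SOX9-AS1. Empty vector cells gave 125, 135 and 145 normalized counts and HMGB2OE cells 245, 211 and 240. All HMGB2OE libraries were above all empty vector libraries, and the log2 fold change was 0.77 ± 0.132 (adjusted p = 0.000498). It was called under each of 16 alternatives, with log2 fold changes of 0.73 to 0.84 when a library was left out. The alternative of centring on 10 Mb windows shifted only the fold change and kept the adjusted p of the main fit. The other SOX9 peaks called higher were 140.3 kb downstream (51.4, 69.7 and 62.0 against 101, 118 and 78.8; 0.69 ± 0.198, adjusted p = 0.0314), 176.5 kb downstream (100, 80.0 and 80.7 against 129, 146 and 129; 0.65 ± 0.163, adjusted p = 0.0141) and 194.1 kb upstream (163, 188 and 186 against 273, 289 and 268; 0.62 ± 0.121, adjusted p = 0.00178). No libraries overlapped between groups at these 3. The call at 140.3 kb was lost without HMGB2OE replicate 1 (0.68, adjusted p = 0.103), HMGB2OE replicate 2 (0.55, 0.183), empty vector replicate 1 (0.60, 0.1) or empty vector replicate 3 (0.69, 0.065), and with DESeq2 (0.70, 0.0694). That at 176.5 kb was lost without HMGB2OE replicate 2 (0.58, adjusted p = 0.0763) or empty vector replicate 2 (0.59, 0.077). The one at 194.1 kb fell under the fold limit without empty vector replicate 1 (0.57, adjusted p = 0.0101).

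The 3 SOX9 peaks called lower were all upstream. At chr17:71995547-71996048, 125.2 kb upstream and nearest to the start of the lncRNA ROCR, the counts were 143, 144 and 76.1 against 77.4, 70.1 and 55.2 (log2 fold change −0.83 ± 0.207, adjusted p = 0.0131). The groups overlapped here, because empty vector replicate 3 lay just under HMGB2OE replicate 1. At chr17:71404992-71405493, 715.8 kb upstream, they were 80.6, 66.2 and 96.0 against 36.6, 40.9 and 60.8 (−0.82 ± 0.234, adjusted p = 0.0302). At chr17:71189092-71189593, 931.7 kb upstream within the lncRNA CASC17, they were 170, 243 and 228 against 135, 123 and 146 (−0.68 ± 0.143, adjusted p = 0.00365). Both of these groups were apart. The call at 125.2 kb was lost without HMGB2OE replicate 3 (−0.72, adjusted p = 0.0596), empty vector replicate 1 (−0.71, 0.0678) or empty vector replicate 2 (−0.67, 0.112). That at 715.8 kb was lost without HMGB2OE replicate 1 (−0.68, adjusted p = 0.156), HMGB2OE replicate 2 (−0.75, 0.111), empty vector replicate 1 (−0.82, 0.0623) or empty vector replicate 3 (−0.68, 0.136), and with DESeq2 (−0.82, 0.0587). That at 931.7 kb fell under the fold limit without empty vector replicate 2 (−0.57, adjusted p = 0.042) and with the replicate block and GC-content offsets together (−0.58, 0.00452).

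The SOX9 sequences show what stood in a peak that opened near the gene, one that opened with none of the searched words, and one that closed. Each is the central stretch of the peak on the plus strand of hg38, at chr17:72151574-72151873, chr17:71926782-71927081 and chr17:71995648-71995947. Capitals mark the AP-1 word TGACTCA, the SOX word AACAATG and the TEAD word ACATTCC on either strand, where a minus-strand match reads CATTGTT or GGAATGT.
SOX9 +30.7 kb, called higher: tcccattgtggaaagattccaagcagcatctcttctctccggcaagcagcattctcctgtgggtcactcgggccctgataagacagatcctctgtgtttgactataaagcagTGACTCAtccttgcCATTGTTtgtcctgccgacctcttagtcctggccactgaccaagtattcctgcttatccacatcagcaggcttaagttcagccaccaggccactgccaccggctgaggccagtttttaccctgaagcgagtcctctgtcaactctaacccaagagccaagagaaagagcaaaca
SOX9 −194.1 kb, called higher: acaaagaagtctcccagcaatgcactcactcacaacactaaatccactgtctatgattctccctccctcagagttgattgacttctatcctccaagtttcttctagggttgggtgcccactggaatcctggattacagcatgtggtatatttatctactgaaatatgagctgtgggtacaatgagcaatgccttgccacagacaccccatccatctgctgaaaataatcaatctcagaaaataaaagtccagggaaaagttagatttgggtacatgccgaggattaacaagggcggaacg
SOX9 −125.2 kb, called lower: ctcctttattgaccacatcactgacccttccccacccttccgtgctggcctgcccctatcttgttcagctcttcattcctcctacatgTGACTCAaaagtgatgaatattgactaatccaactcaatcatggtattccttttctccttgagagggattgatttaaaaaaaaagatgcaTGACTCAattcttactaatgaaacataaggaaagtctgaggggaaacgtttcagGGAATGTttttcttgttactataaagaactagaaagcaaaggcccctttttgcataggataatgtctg
The peak at +30.7 kb held an AP-1 word and a SOX word, starting at bases 113 and 127 of the printed stretch. The printed stretch of the peak called lower held 2 AP-1 words and 1 TEAD word, and outside that stretch the peak also held the SOX word ACAAAGG, so AP-1 and SOX words stood in a peak called higher and in one called lower.

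**Figure D3:**
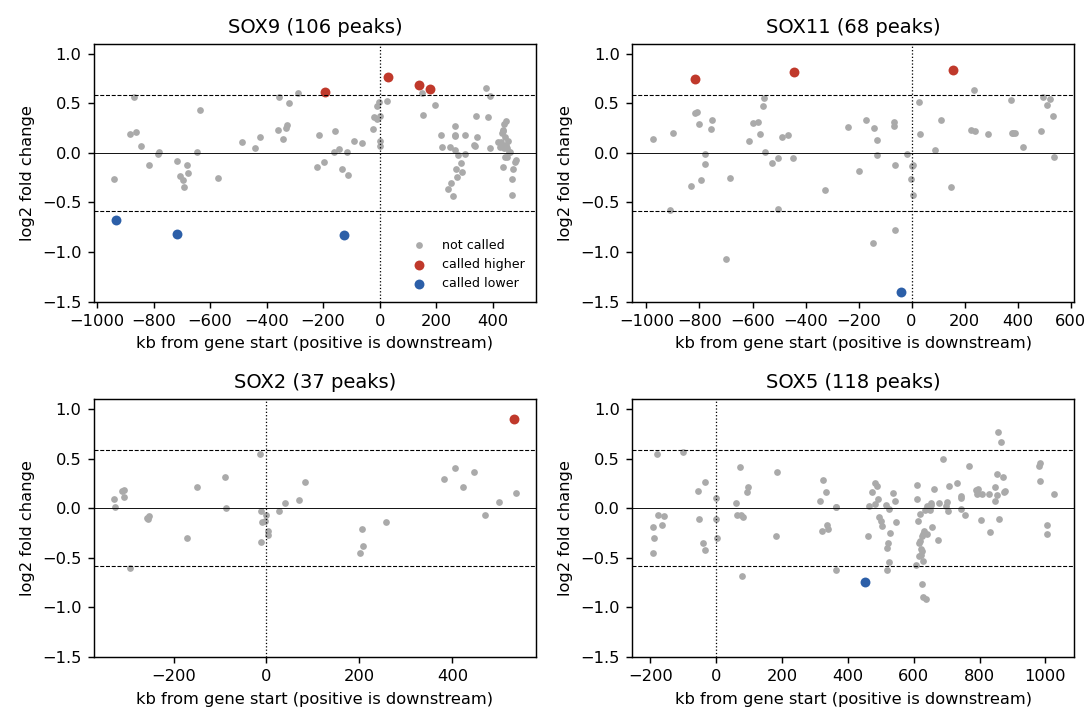
Log2 fold change of HMGB2OE over empty vector (y axis) of each peak of SOX9, SOX11, SOX2 and SOX5 against its distance in kb from the gene start (x axis, positive is downstream); dashed lines mark the 1.5-fold limit and coloured points the called peaks. The peaks close to the SOX9 start all lie above 0, and the SOX5 peaks between 600 and 640 kb mostly lie below it.

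SOX5 (chromosome 12, 23529504 to 24562544, minus strand), a SOXD gene spread over 1033 kb, had the most peaks of the 8 genes, 118, of which 1 was called. It lay in an intron, and it was the only intronic SOX peak called. Empty vector cells gave 257, 256 and 172 normalized counts and HMGB2OE cells 118, 166 and 122. The groups did not overlap, though empty vector replicate 3 lay close to HMGB2OE replicate 2, and the log2 fold change was −0.75 ± 0.156 (adjusted p = 0.00331). The call was kept under each of 16 alternatives. The strongest SOX5 promoter peak, at an internal start 612.8 kb into the gene, gave 871, 876 and 855 against 774, 845 and 758 (−0.13 ± 0.0838, adjusted p = 0.395). Around that start, from 600 to 640 kb, only 2 of 20 peaks had a log2 fold change above 0, with a median of −0.34 and a lowest value of −0.92. Of all tested peaks 49.2% were above 0. None of the 20 was called by edgeR with all libraries or by DESeq2. An unadjusted p under 0.05 was found at 5, or 25%, beside 20.9% of all tested peaks. The peak at chr12:23936232-23936733 was called lower with the replicate block (−0.78, adjusted p = 0.0467), with the loess trend removed (−0.79, 0.0349) and without HMGB2OE replicate 2 (−0.97, 0.0486), and that at chr12:23932921-23933422 without empty vector replicate 3 (−0.71, 0.0171). This stretch was chosen after its values were seen, and the groups did not overlap at 7 of its 20 peaks, or 35%, beside 25.1% of all tested peaks. Its peaks were weak, with a median of 55.0 normalized counts, and low in GC, with a median of 35.5%, and its median log2 fold change was −0.22 with GC-content offsets and −0.21 without empty vector replicate 1.

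SOX6 (chromosome 11, 15966449 to 16739591, minus strand), the other SOXD gene, had the strongest promoter peak but no called peak among 31 by edgeR or DESeq2. An unadjusted p under 0.05 was found at 7, or 22.6%. Of all tested peaks 3.31% were called by edgeR and 20.9% had such a p. The 5 SOX6 promoter peaks had log2 fold changes of −0.49 to −0.06, all below 0, beside 42.9% of all promoter peaks above 0. They were below 0 under each of 16 alternatives too, but these refits drew on the same libraries and are not independent. Summed, they held 2588, 2752 and 2583 normalized counts in empty vector cells and 2396, 2330 and 2226 in HMGB2OE cells, with no overlap, as at 28.8% of genes for promoter sums. The strongest, at the SOX6 start, gave 1053, 1101 and 1100 against 1005, 966 and 895 (−0.18 ± 0.0809, adjusted p = 0.184). The promoter peak that passed the adjusted p lay at an internal start 336.3 kb into the gene, at chr11:16403080-16403581, with 236, 250 and 239 against 201, 171 and 141 (−0.49 ± 0.132, adjusted p = 0.022). Its fold stayed under 1.5 with all libraries, and it passed both limits without HMGB2OE replicate 1 (−0.63, adjusted p = 0.0178). A further peak, in an exon at the far end of the gene, passed the adjusted p at a log2 fold change of −0.36 (733 to 572 normalized counts, adjusted p = 0.0211).

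SOX2 (chromosome 3, 181711925 to 181714436, plus strand), the stem cell factor, lies inside the lncRNA SOX2-OT, and 25 of its 37 peaks were in that lncRNA, none of which was called by edgeR. At the SOX2 start the counts were 496, 522 and 419 against 468, 448 and 456, overlapping between groups (−0.07 ± 0.101, adjusted p = 0.753). The only SOX2 call was a weak peak 532.6 kb downstream, at chr3:182244247-182244748, with 48.6, 32.7 and 48.0 against 77.4, 100 and 58.5. All HMGB2OE libraries were above all empty vector libraries, and the log2 fold change was 0.90 ± 0.24 (adjusted p = 0.0204). The call was lost without HMGB2OE replicate 1 (0.92, adjusted p = 0.0636), HMGB2OE replicate 2 (0.69, 0.169) or empty vector replicate 2 (0.72, 0.126). The strongest far peak, 500.8 kb downstream, was more open and level between groups, at 466, 508 and 483 against 473, 527 and 520.

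SOX4 (chromosome 6, 21593751 to 21598619, plus strand), a SOXC gene widely active in tumours, had 29 peaks, 16 of them inside the lncRNA CASC15. None was called by edgeR or DESeq2, beside 3.31% of all tested peaks called by edgeR. An unadjusted p under 0.05 was found at 7, or 24.1%, beside 20.9% of all tested peaks. The groups did not overlap at 10 of the 29, or 34.5% beside 25.1% of all tested peaks. Its promoter peak gave 600, 662 and 548 normalized counts against 527, 603 and 526, overlapping between groups (−0.13 ± 0.0972, adjusted p = 0.477). Its strongest far peak, 55.2 kb upstream, gave 789, 816 and 750 against 752, 744 and 688 (−0.11 ± 0.0856, adjusted p = 0.508). At the 5 peaks on promoters of other genes the groups were apart at each, higher in HMGB2OE cells at 4 and lower at 1, with a median log2 fold change of 0.34 and adjusted p of 0.0578 to 0.351. The weakest of them, 320.1 kb upstream, gave 23.6, 12 and 25.7 against 32.3, 35.9 and 47.3, and its log2 fold change of 0.94 ± 0.354 (adjusted p = 0.112) was the highest of the 403 SOX peaks. The promoter sequences of SOX2 and SOX4, the 250 bases before the RefSeq start on the plus strand of GRCh38.p14, are shown as open promoters that were not called. They cover chr3:181711675-181711924 and chr6:21593501-21593750, and capitals mark the SOX word ACAAAGG.
SOX2 promoter: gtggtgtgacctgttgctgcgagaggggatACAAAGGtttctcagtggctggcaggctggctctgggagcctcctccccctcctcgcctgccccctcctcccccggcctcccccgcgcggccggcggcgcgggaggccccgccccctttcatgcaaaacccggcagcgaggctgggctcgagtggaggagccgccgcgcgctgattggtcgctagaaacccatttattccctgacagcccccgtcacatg
SOX4 promoter: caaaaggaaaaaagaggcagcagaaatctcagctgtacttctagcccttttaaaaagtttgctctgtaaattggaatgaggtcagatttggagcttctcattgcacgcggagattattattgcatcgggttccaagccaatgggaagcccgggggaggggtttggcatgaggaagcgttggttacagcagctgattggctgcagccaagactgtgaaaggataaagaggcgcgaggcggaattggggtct

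SOX11 (chromosome 2, 5692384 to 5701385, plus strand), the other SOXC gene, had 3 peaks called higher and 1 called lower among 68, which is 5.88% beside 3.31% of all tested peaks. Most of its peaks, 58, were far, and 3 of those were called, or 5.17% beside 4.56% of all far peaks. Among the 77 other tested peaks within 2 Mb of SOX11, 4 were called higher and 1 lower, or 6.49%. The 58 far peaks summed to 8646, 9097 and 8965 normalized counts in empty vector cells and to 9991, 10250 and 9696 in HMGB2OE cells, and the groups were apart, as at 30.1% of genes for peaks away from promoters. Their median log2 fold change was 0.20, against 0.02 for all far peaks, and stayed between 0.15 and 0.22 under 16 alternatives. By position, 15 of 25 peaks (60.0%) over 500 kb upstream and 9 of 16 (56.2%) 50 to 500 kb upstream were above 0. These shares are near the 53.1% of all far peaks that were above 0. From 50 to 500 kb downstream 14 of 15 (93.3%) were above 0. That count was 13 of 15 without HMGB2OE replicate 1 or 3 or empty vector replicate 2 or 3. The stretches were not limited to the far class. The downstream stretch was chosen after its values were seen. The 2 promoter peaks summed to 827, 847 and 872 against 704, 813 and 636, so the groups did not overlap, as at 28.8% of genes for promoter sums. The strongest of them, chr2:5691936-5692437, gave 691, 724 and 723 against 597, 674 and 510 (−0.26 ± 0.0965, adjusted p = 0.105), and was not called.

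The largest change at any SOX gene was a weak peak that closed 39.5 kb upstream of SOX11. At chr2:5652607-5653108, within the lncRNA LINC01248, it gave 50, 39.6 and 39.8 normalized counts in empty vector cells and 14.5, 11.7 and 23.6 in HMGB2OE cells. The groups did not overlap, and the log2 fold change was −1.40 ± 0.352 (adjusted p = 0.0145). The call was lost without HMGB2OE replicate 1 (−1.31, adjusted p = 0.07), HMGB2OE replicate 2 (−1.19, 0.0787) or empty vector replicate 1 (−1.28, 0.054). Upstream, the peaks at 441.7 kb (84.8, 95.5 and 106 against 132, 174 and 204; 0.82 ± 0.165, adjusted p = 0.00267) and at 818.2 kb (118, 132 and 115 against 193, 228 and 195; 0.75 ± 0.138, adjusted p = 0.00108) were called higher with the groups apart, and both calls were kept under each of 16 alternatives. The peak 154.7 kb downstream (33.4, 39.6 and 33.9 against 59.5, 59.2 and 75.4; 0.84 ± 0.245, adjusted p = 0.0349) was apart too, but its call was lost when any library was left out, at log2 fold changes of 0.73 to 0.93 and adjusted p up to 0.15, and with DESeq2 (0.85, 0.0633). The plot of the called peaks shows each library.

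The sequences of the SOX11 peaks with the largest rise kept under every alternative fit and with the largest fall are shown for comparison, from the plus strand of hg38 at chr2:5250550-5250849 and chr2:5652708-5653007. Capitals mark the AP-1 word.
SOX11 −441.7 kb, called higher: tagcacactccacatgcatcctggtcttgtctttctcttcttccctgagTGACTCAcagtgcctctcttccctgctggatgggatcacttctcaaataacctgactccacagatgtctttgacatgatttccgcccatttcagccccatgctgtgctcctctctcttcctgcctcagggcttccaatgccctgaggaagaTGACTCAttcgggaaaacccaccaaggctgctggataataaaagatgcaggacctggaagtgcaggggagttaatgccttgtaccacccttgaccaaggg
SOX11 −39.5 kb, called lower: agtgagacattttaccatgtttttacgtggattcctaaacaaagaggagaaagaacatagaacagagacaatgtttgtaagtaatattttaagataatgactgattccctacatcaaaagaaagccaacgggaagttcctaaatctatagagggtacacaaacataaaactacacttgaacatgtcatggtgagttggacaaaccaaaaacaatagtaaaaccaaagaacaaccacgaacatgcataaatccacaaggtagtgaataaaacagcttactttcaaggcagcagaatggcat
The upstream peak that opened held 2 AP-1 words, and the peak that closed held none of the searched words.

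**Figure D4:**
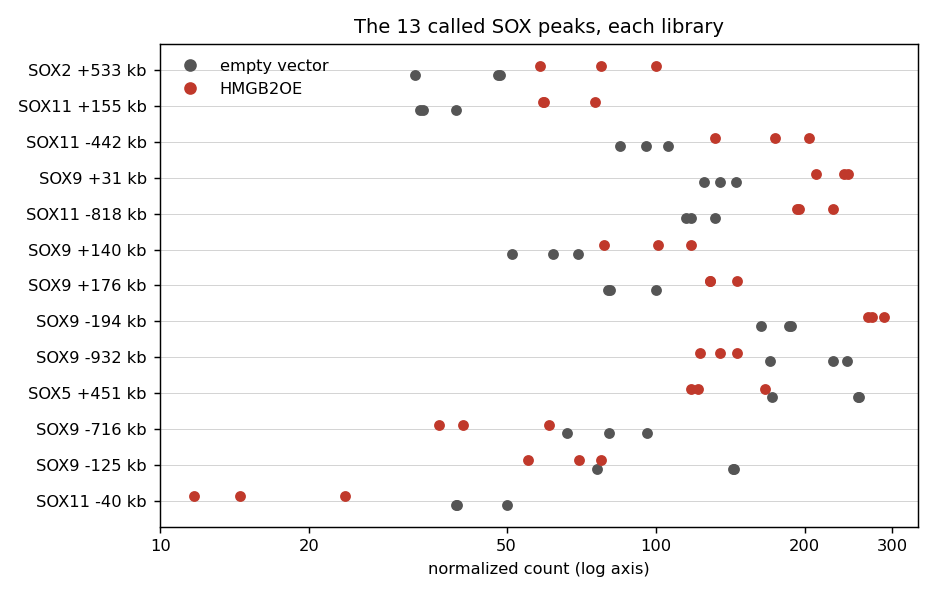
Normalized count (x axis, log scale) of each of the 13 called SOX peaks (y axis, named by gene and distance from its start) in the 3 empty vector and 3 HMGB2OE libraries, 1 point per library. At 12 of the 13 peaks the groups are apart, and at SOX9 −125 kb empty vector replicate 3 (76.1) lies under HMGB2OE replicate 1 (77.4). The peaks were called on these same libraries, so the separation is not additional support for the calls.

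**Figure D5:**
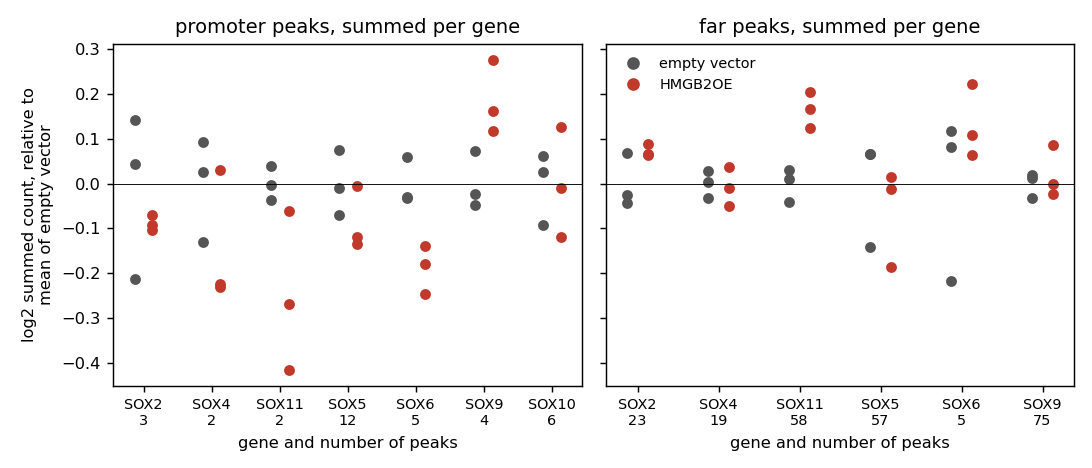
Log2 of the summed normalized count relative to the mean of the empty vector libraries (y axis), for promoter peaks (left) and far peaks (right) of each SOX gene (x axis, with the number of peaks), 1 point per library. SOX9 promoters and SOX11 far peaks lie above the empty vector libraries, and SOX6 and SOX11 promoters below them.

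The 8 peaks called higher had a median GC content of 46.9% and the 5 called lower 38%, beside 42.2% for all SOX peaks and 46.2% for all tested peaks. With GC-content offsets the calls numbered 9 higher and 5 lower. The AP-1 word TGACTCA, read on both strands, was rare at SOX promoters, in 1 of 34 peaks or 2.94%, beside 19.0% of all promoter peaks. In far SOX peaks it stood in 73 of 237, or 30.8%, beside 33.4% of all far peaks. It stood in 5 of the 8 peaks called higher and 2 of the 5 called lower, beside 35.9% and 34.2% of all peaks called higher and lower. The SOX word ACAAAGG stood in 6 of 34 promoter peaks, or 17.6% beside 9.75%, and in 29 of 237 far peaks, or 12.2% beside 13.8%. The SOX word AACAATG stood in 2 of 34 and 27 of 237, beside 5.89% and 10.5%. The TEAD word ACATTCC stood in none of the 34 and in 22 of 237, beside 6.98% and 10.1%, and the CRE word TGACGTCA in none of the 403, beside 0.758% of all tested peaks. None of these words contains another, and a match is a description of the sequence only.

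Lists of genes around the SOX genes were read in the same fit. The other SOX family members had 3 of 72 peaks called (2 higher, 1 lower, 4.17%), with SOX7 holding no peak. The SOX10 partners and melanocytic targets had 10 of 210 (7 higher, 3 lower, 4.76%), the cartilage targets of SOX9, SOX5 and SOX6 3 of 76 (all higher, 3.95%), and the neural partners and targets of SOX2, SOX4 and SOX11 3 of 92 (all higher, 3.26%), with DCX holding no peak. The background over all tested peaks was 3.31%. Peaks were assigned to these genes by position only, and whether a peak acts on its gene was not tested. KIT, the receptor that melanocytes need to survive, had 2 peaks called higher, 70763 and 89139 bp from the nearest coding start. The stronger KIT peak, at 70763 bp, went from 207 ± 36.7 to 387 ± 14.6 normalized counts (SD, n = 3; log2 fold change 0.89 ± 0.122, adjusted p = 4.56e-05). The weaker KIT call, at 0.62, was lost without HMGB2OE replicate 1, 2 or 3 or empty vector replicate 2 or 3, at adjusted p of 0.0544 to 0.117, and with DESeq2 (adjusted p = 0.0559). TFAP2A, a crest factor, had 2 peaks called higher (0.66 and 0.83) that were called under all 16 alternatives. They lay 653291 and 280559 bp from the nearest coding start, and the TFAP2A peak called lower 24187 bp from it. Its peak called lower (−0.59) was under the fold limit without HMGB2OE replicate 2 (−0.58), with GC-content offsets (−0.54), with these and the replicate block (−0.54) and with library size only (−0.57), and was lost without empty vector replicate 1 (−0.49, adjusted p = 0.0598). PROX1 had 2 peaks called higher, 268439 and 161525 bp from the nearest coding start. That at 0.65 was lost without empty vector replicate 2 (0.48) or 3 (0.58), and that at 0.84 without HMGB2OE replicate 1 or 3 or empty vector replicate 1 or 2, at 0.68 to 0.84.

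Summed over all their peaks, SOX9 and SOX10 hardly moved. SOX9 gave 25134 ± 900.0 normalized counts in empty vector and 25866 ± 771.0 in HMGB2OE cells, and SOX10 gave 1858 ± 133 and 1774 ± 95, with the groups overlapping at both. Such sums were apart at 30.0% of genes. In empty vector cells the 23 SOX9 peaks at promoters of other genes held 10923 of the SOX9 counts and the 75 far peaks 13075. The 4 own promoter peaks held 600 and the 4 near distal peaks 536, and the groups were apart at both of these classes. The SOX9 total therefore says little about the peaks near its start. Among 9670 genes with at least 5 peaks, the summed counts of CADPS, FRAS1 and PDIA4 differed least from those of SOX9 over the 6 libraries. Their root mean square differences were 0.0119 to 0.0121 on the log2 scale after centring. For SOX10 the closest were HLA-G, CCDC125 and FAM53A, at 0.0272 to 0.0285. These genes were picked as the smallest of 9670 differences over only 6 libraries, so close values are bound to be found. Shared regulation was not tested.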

How the data were processed

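ATAC-seq was performed on A375 cells, with 3 empty vector and 3 HMGB2OE libraries grouped by their labels. Per the labels and the study's methods, reads were trimmed (Trim Galore 0.6.7, cutadapt 4.0) and mapped to hg38 by Bowtie 2, Picard took out duplicates, and MACS2 called peaks with a melanocyte dataset from a public source as control. Blacklisted regions were dropped, nearby peaks were merged into a shared atlas, and the authors deposited the raw count that featureCounts gave per peak and library. Whether reads were shifted for Tn5 is not given in the sources used here. A single peak calling setting against another cell type could limit which weak peaks are listed.

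The deposited counts were tested as they stood with edgeR 4.0.16 (R 4.3.3), using TMM scaling, filterByExpr, the quasi-likelihood F test and Benjamini-Hochberg adjustment over 150117 peaks. SE is the log2 fold change divided by the root of F. Alternatives were other scalings, DESeq2 1.42.0, other filters, GC-content offsets, a replicate block, centring on 10 Mb windows, each library left out and other fold limits, assignments and distance limits. Replicates differed by more than sampling noise (chi-square per degree of freedom 2.5 to 4.66) and were counted separately. The script was tested on simulated data. Named were all 8 genes, the strongest promoter and far peak of each, up to 8 called peaks in each direction, 3 genes most like SOX9 and SOX10 and, in other lists, genes with at least 2 calls. Members and lists were chosen with earlier results of these data known. RefSeq promoter sequences (GRCh38.p14) were matched for SOX2, SOX4, SOX5 and SOX6. Counting intervals and the floor of 3 counts cover counting error only. Sequences of the other called peaks are not reported here.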

Additional observations from a re-analysis of the deposited data

How the results depend on the processing

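Over the counts and medians, 96 of 114 values under alternatives stayed within the spread allowed, and none reversed. The lower calls rose from 5 to 8 with the loess trend removed. Without a fold limit, and likewise with a lower limit, 15 peaks were called higher and 13 lower, 1 of them at a promoter and 19 far. With promoters limited to 1 kb their median log2 fold change was −0.07 in place of −0.12. Leaving out 1 library gave 5 to 10 higher calls, 2 to 7 lower calls, 0 to 1 promoter calls, 7 to 11 far calls and a promoter median of −0.12 to −0.05. The cause was not tested, except that such fits hold fewer libraries. Among named peaks that were called, 177 of 208 values kept the call and none reversed. The 208 include centring on 10 Mb windows, which kept the adjusted p of the main fit and so could not test it. Of peaks not called, the SOX2 promoter was at 0.003 and the SOX9 promoter at −0.0048 without empty vector replicate 2, the SOX10 promoter at −0.01 without HMGB2OE replicate 3 and at −0.01 without empty vector replicate 2, and the strongest SOX9 far peak at −0.01 with GC-content offsets, −0.01 with the block and GC-content offsets and −0.03 without empty vector replicate 1. Leaving out 1 library moved these 4 peaks over −0.16 to 0.003 (SOX2 promoter), −0.0048 to 0.20 (SOX9 promoter), −0.03 to 0.12 (SOX9 far peak) and −0.01 to 0.04 (SOX10 promoter).

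Libraries of both groups carried the same replicate numbers, but nothing in the labels ties them. The correlations of same-numbered deviations were −0.0882, 0.196 and 0.13, beside −0.274 to 0.162 for the other pairs. With so few libraries these values cannot decide whether libraries of a number shared a batch. With the replicate number as a block, 9 SOX peaks were called higher and 7 lower, 12 of them far and 0 at promoters, with medians of −0.11 at promoters and 0.05 at far peaks. The library of a number was not always the best match of its partner. The 3 weakest called peaks by empty vector mean (35.6 to 43.1 normalized counts, at SOX2 and SOX11) each lost the call in at least 3 fits with a library left out.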
